A study of Mus musculus with 4 samples.

Results

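The proteasome genes were all gene probes of the arrays whose name begins with Psma, Psmb, Psmc, Psmd, Psme, Psmf or Psmg followed by a number. This rule took 67 of 41174 probes under 44 gene names and used no measured value. The RNA came from mucosal mast cells of mouse, differentiated in vitro as a culture model of the mast cells of epithelia. In each of 4 biological replicates, cells stimulated with interleukin 18 (IL-18), an inflammatory cytokine, were labelled with Cy5, their own unstimulated control was labelled with Cy3, and both were hybridised to 1 array. The sources used here give no dose, length of stimulation, mouse strain or origin of the cultures. All 4 arrays had the same dye orientation, so the effect of IL-18 and that of the dye on a probe cannot be told apart.

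The proteasome is the complex that degrades proteins marked with ubiquitin. Its 20S core is a barrel made of alpha rings, which gate the entrance, and beta rings, which carry the cutting sites. The 19S particle caps the barrel, binds ubiquitin chains, removes them and unfolds the protein with a ring of ATPases. In many cells interferon gamma induces the immunoproteasome, in which other beta subunits replace the cutting ones and change the peptides that reach MHC class I. The proteasome also degrades the NF-kB inhibitor IκBα, a step in the signalling of receptors of the IL-1 family.

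Over the 4 arrays, of 43379 gene spots 57.9% to 62.7% exceeded background clearly, by the software's flag, in the IL-18 channel and 49.9% to 54.0% in the unstimulated channel, and 0 were saturated. No proteasome spot (0) was flagged as an outlier. The 9 mast cell markers were measured on all arrays at a mean log2 intensity between 11.5 and 17.0. Of the markers of other blood cells, those of T cells, B cells, erythroid cells and neutrophils lay between 7.12 and 9.52, those of macrophages between 7.74 and 10.1, and those of dendritic cells between 7.28 and 11.01; 0 eosinophil markers could be tested. The largest changes in these lists were those of Cma1 (0.82), Fcer1a (0.81), Mcpt6 (−0.74), Mcpt1 (0.69) and Cpa3 (0.47), all mast cell genes, while 1 of 4 macrophage markers rose (Emr1, 0.28) and 1 of 2 tested dendritic cell markers passed, Itgax, in opposite directions at its brighter (−0.21) and dimmer probe (0.30). Their part in the results on the proteasome was not tested. In bulk RNA, fewer cells of a type and less RNA per cell cannot be told apart.

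The genes of the 20S core were mostly higher in the IL-18 channel, those of the 19S particle more often lower, and those of the immunoproteasome did not pass the test. The differences were small, within 1.42-fold for every rise and, with 1 probe of Psmd2 at 0.501-fold, down to 0.619-fold for the other falls. All values are log2 ratios of the IL-18 channel over the unstimulated channel, relative to the loess trend of each array, which sets the ratio of the typical probe of each brightness to 0. Of the 67 probes, 65 were bright enough to be tested and all 44 names had at least 1. The other 2, 1 probe each of Psmd11 and Psme4, were well above background on 0 arrays. A probe passed at an adjusted p under 0.05 in limma, where the Benjamini-Hochberg adjustment ran over the 24104 tested probes.

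By this threshold 20 proteasome probes rose, 16 fell and 29 did not pass, against 18.1% higher and 16.1% lower, 34.1% in either direction, among all tested probes. The members are bright genes, and among the 2553 tested probes at least as bright as the median member 26.8% rose and 25.9% fell. Read at the brightest probe of each gene, 15 of the 44 genes rose and 11 fell, where 19.7% of all tested genes rose and 13.7% fell. On all 4 arrays 17 genes were above 0 and 13 below 0, where 36.4% and 21.8% of all genes with 4 values were. The median log2 ratio over the member probes was 0.01, and that over all tested probes 0.02. Without replicate 2, 3 of the genes rose and 4 fell, and without replicate 3, 4 rose and 5 fell, while all tested probes then gave 1387 rises and 904 falls, and 1685 and 1258. With each array centred on its median in place of loess, 40 genes rose and 0 fell, as did 54 and 0 of the probes, and the median of all tested probes moved to 0.43.

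**Figure D1:**
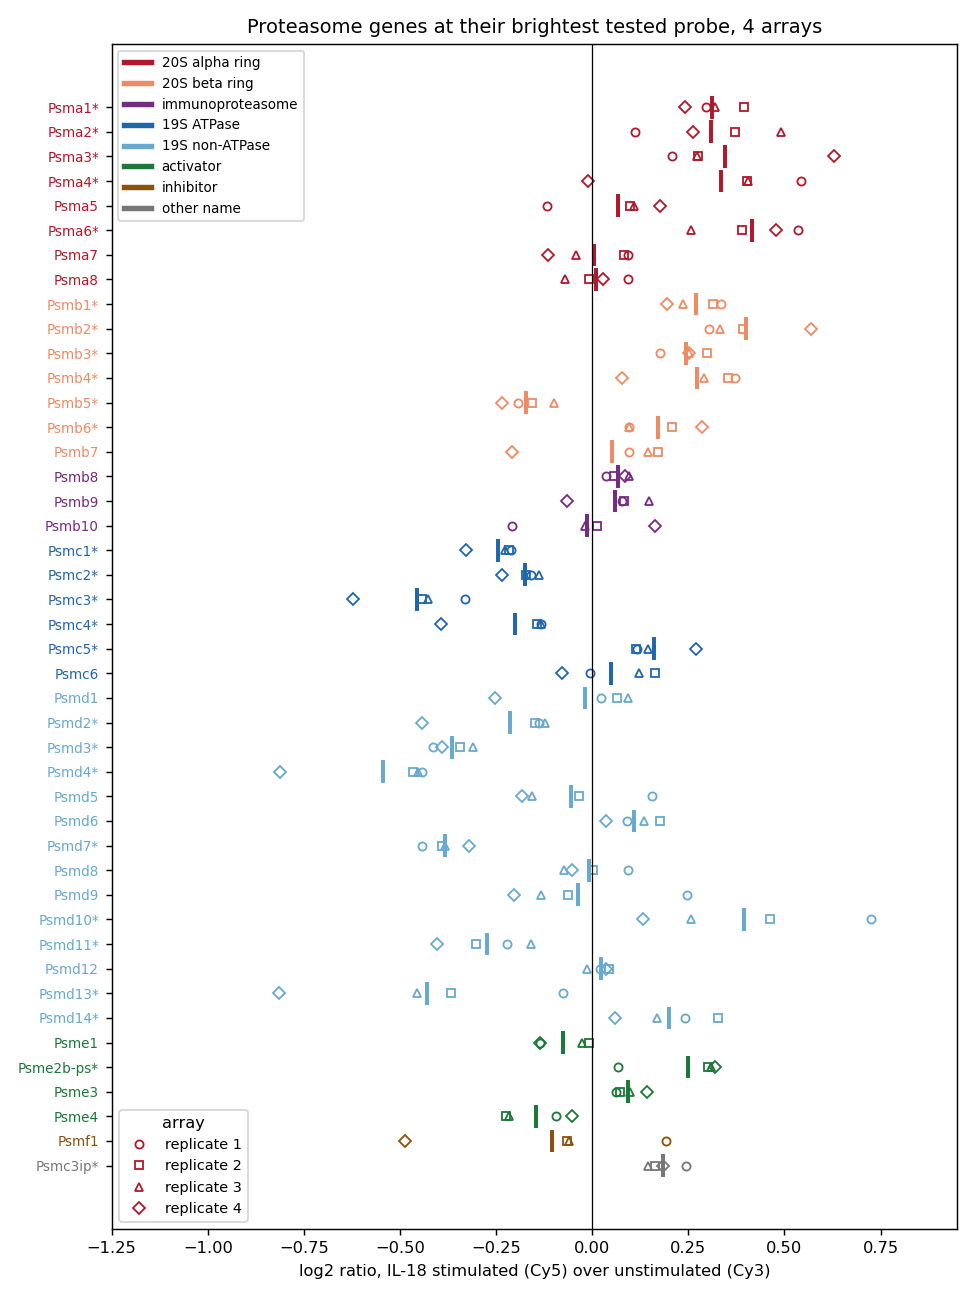
Log2 ratio, IL-18 stimulated over unstimulated, of the 44 genes at their brightest tested probe. Open symbols are the 4 arrays, bars their mean, colours the class and asterisks an adjusted p under 0.05 in limma; Psma6 leads the rises at a mean of 0.41 and Psmd4 the falls at −0.54; with median centring in place of loess all means lie above 0.

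Of the 8 genes of the alpha ring, 5 rose and 0 fell, beside 19.7% and 13.7% of all tested genes, with a median of 0.31. Psma6 rose most. Its normalized intensity was 31606, 24952, 22551 and 23275 in the IL-18 channel of replicates 1 to 4, against 21823, 19062, 18866 and 16696 in the unstimulated channel. All 4 arrays were higher with IL-18, replicate 1 being the brightest in both channels. The log2 ratios were 0.53, 0.39, 0.26 and 0.48, a mean of 0.41 ± 0.12 (SD, n = 4), or 1.33-fold, with an adjusted p of 0.00408 in limma.

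The other rises in the alpha ring were of similar size. Psma3 had log2 ratios of 0.21, 0.27, 0.27 and 0.63 (1.27-fold) and Psma1 of 0.30, 0.39, 0.32 and 0.24 (1.24-fold). Psma2 had 0.11, 0.37, 0.49 and 0.26 (1.24-fold). Replicate 4 was the highest array for Psma3 and the lowest for Psma1, and replicate 1 the lowest for Psma2. Psma4 read 0.54, 0.40, 0.40 and −0.01 at its brighter probe, with replicate 4 at no change, and 0.71, 0.62, 0.54 and 0.15 at its dimmer one. Both probes passed, at means of 0.33 ± 0.24 and 0.51 ± 0.25 (SD, n = 4), with limma's adjusted p at 0.0301 and 0.00939.

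The other 3 alpha genes did not pass. Psma5 read 0.07 ± 0.13 and Psma7 0.00 ± 0.10 (SD, n = 4). Psma8, known as a testis form of the alpha ring, read 0.01 ± 0.07. When 1 array at a time was left out, Psma1 and Psma6 passed each time. Psma2 and Psma3 missed the threshold without replicate 2 (limma's adjusted p = 0.0897 and 0.0682) or replicate 3 (0.0754 and 0.0593), and the brighter probe of Psma4 without replicate 1, 2 or 3 (0.0616 to 0.127). With the scanner software's own ratio Psma2 read 0.12 and did not pass.

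Promoters of 2 of these genes are shown because they hold the letters CCAAT, the element of the factor NF-Y. In the 250 bases before the gene start 6 of the 11 core genes with a promoter used from the RefSeq table (GRCm38.p6) held it. Of all 32851 mouse promoters in the table, 33.8% held it on either strand. So did 14 of the 36 member genes with a promoter used and 5 of the 17 genes of 19S. The share among the core genes was not tested. Capitals mark CCAAT or, read on the other strand, ATTGG.
Psma1, chr7:114276117-114276366, minus strand: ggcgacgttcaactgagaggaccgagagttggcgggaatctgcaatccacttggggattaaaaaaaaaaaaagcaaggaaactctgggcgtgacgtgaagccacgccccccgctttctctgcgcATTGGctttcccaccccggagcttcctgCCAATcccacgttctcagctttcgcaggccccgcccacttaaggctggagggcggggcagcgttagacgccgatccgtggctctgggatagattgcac
Psma2, chr13:14612992-14613241, plus strand: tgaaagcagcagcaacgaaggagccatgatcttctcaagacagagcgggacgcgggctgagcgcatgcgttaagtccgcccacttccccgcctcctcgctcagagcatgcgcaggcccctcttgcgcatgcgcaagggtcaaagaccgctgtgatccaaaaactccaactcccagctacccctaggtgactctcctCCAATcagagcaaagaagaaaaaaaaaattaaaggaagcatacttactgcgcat
Psma1 held the letters once in each direction and Psma2 once. Another 8 patterns were searched on both strands. The NF-kB letters GGGA and TTCC, set 2 bases apart, stood in 0 of the 11 core genes and in 1 of all 36 member genes, Psme4, against 1.21% of all promoters. The 36 genes had 38 promoter windows. A gene counted when any of its windows held the letters, while the shares of all promoters are per window. The antioxidant response letters TGACNNNGC stood in 5 of the 36, against 10.2%. The remaining counts were 0 for TGANTCAGC, a second antioxidant form that can overlap the first (1.02% of all), 2 for GCCATNTT, the element of YY1 (3.91%), 3 for the interferon response element, GAAA and GAAA set 2 bases apart (2.98%), 4 for the NRF1 element, TGCGCA and GCG set 1 base apart (2.58%), 12 for CCGGAAG, the letters of the ETS family (6.91%), and 20 for GGGCGG, the GC box (32.7%). These are matches of letters in this window and show no binding.

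Of the 7 constitutive genes of the beta ring, 5 rose, 1 fell and 1 did not pass, where 19.7% of all tested genes rose and 13.7% fell, with a median of 0.24. Psmb2 rose most. Its normalized intensity was 3451, 2868, 2391 and 2570.2 in the IL-18 channel of replicates 1 to 4, against 2795, 2186, 1899 and 1732 in the unstimulated channel. Every array was higher with IL-18, and replicate 4 had the largest difference. The log2 ratios were 0.30, 0.39, 0.33 and 0.57, a mean of 0.40 ± 0.12 (SD, n = 4), 1.32-fold, with limma's adjusted p at 0.00445. Psmb1 (0.27 ± 0.07), Psmb4 (0.27 ± 0.13) and Psmb3 (0.24 ± 0.05), which like Psmb2 have no cutting site, rose by 1.18-fold to 1.21-fold, above 0 on all 4 arrays. The dimmer probe of Psmb3 read 0.09 ± 0.17 and did not pass, and with the software's ratio the brighter one read 0.10 and did not pass either.

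The 3 cutting subunits of the constitutive core differed in direction. Psmb5, which carries the chymotrypsin-like site, was the core gene that fell. Its intensity was 11697, 11266, 9848 and 9986 in the IL-18 channel, against 13370.2, 12568, 10550.2 and 11749.9 in the unstimulated channel. The IL-18 channel was the lower one on all 4 arrays, with log2 ratios of −0.19, −0.16, −0.10 and −0.23, a mean of −0.17 ± 0.06 (SD, n = 4; limma's adjusted p = 0.0266), which read 0.93 under median centring. Psmb6, which carries the caspase-like site, had 22960.4, 24235, 19288 and 20736 in the IL-18 channel, against 21473, 20991, 18044 and 17008 in the unstimulated channel. It was higher with IL-18 on all 4 arrays, at 0.10, 0.21, 0.10 and 0.29, a mean of 0.17 ± 0.09 (adjusted p = 0.0392 in limma).

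Psmb7, which carries the trypsin-like site, had 4033, 3349, 3040.3 and 3279 in the IL-18 channel, against 3773, 2976, 2749.6 and 3792 in the unstimulated channel. Replicates 1 to 3 were slightly higher with IL-18 and replicate 4 lower, at 0.10, 0.17, 0.15 and −0.21, and the mean of 0.05 ± 0.18 did not pass (limma's adjusted p = 0.599). The calls of Psmb5 and Psmb6 were near the threshold. Both were lost without replicate 2, 3 or 4, at adjusted p-values of 0.0517 to 0.166 in limma, and with the software's ratio, at −0.11 and 0.18. In the beta ring Psmb2 alone passed each time that 1 array was left out; Psmb1 missed without replicate 2 (0.0593), Psmb3 without replicate 2 or 3 (0.0666 and 0.0559) and Psmb4 without replicate 2 or 3 (0.0949 and 0.0785).

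No gene of the immunoproteasome passed the test. Its 3 genes, on 4 probes, gave 0 calls in either direction in limma, and 0 at an unadjusted p under 0.05. Mean log2 ratios ran from −0.03 to 0.07. Of all 24104 tested probes 34.1% passed in either direction, and 11334 had an unadjusted p under 0.05 in limma. With only 4 probes, the 0 calls are not read as a trait of this class. Psmb8, which takes the place of Psmb5, had a normalized intensity of 35468, 32216, 27616 and 29557 in the IL-18 channel of replicates 1 to 4, against 34604, 30993, 25851 and 27846 in the unstimulated channel. Its log2 ratios were 0.04, 0.06, 0.10 and 0.09 at this probe (limma's adjusted p = 0.225) and 0.01, −0.06, −0.01 and −0.07 at the other (limma's adjusted p = 0.582). The first lay just above 0 on every array and the second had replicate 1 just above 0 and 3 arrays just below.

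Psmb9, which takes the place of Psmb6, had 12068, 10610.3, 7838 and 9673 in the IL-18 channel, against 11427, 10025, 7080.3 and 10129.8 in the unstimulated channel. Replicates 1 to 3 were slightly higher with IL-18 and replicate 4 lower, at 0.08, 0.08, 0.15 and −0.07, a mean of 0.06 ± 0.09 (limma's adjusted p = 0.371). Psmb10, which takes the place of Psmb7, had 55029.8, 56243, 43677 and 46252 in the IL-18 channel, against 63565, 55799.8, 44229 and 41266 in the unstimulated channel. Replicate 1 was lower, replicate 4 higher and the other 2 close to 0, at −0.21, 0.01, −0.02 and 0.16, a mean of −0.01 ± 0.15 (limma's adjusted p = 0.892). The thymus-specific Psmb11, on the arrays as 5830406J20Rik, had 2 probes and neither was bright enough to be tested. A missed threshold does not show that these genes are equal in both channels. Under median centring they read 1.14 to 1.38 and rose, when the median of the tested probes at least as bright as the median member was 1.14.

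**Figure D2:**
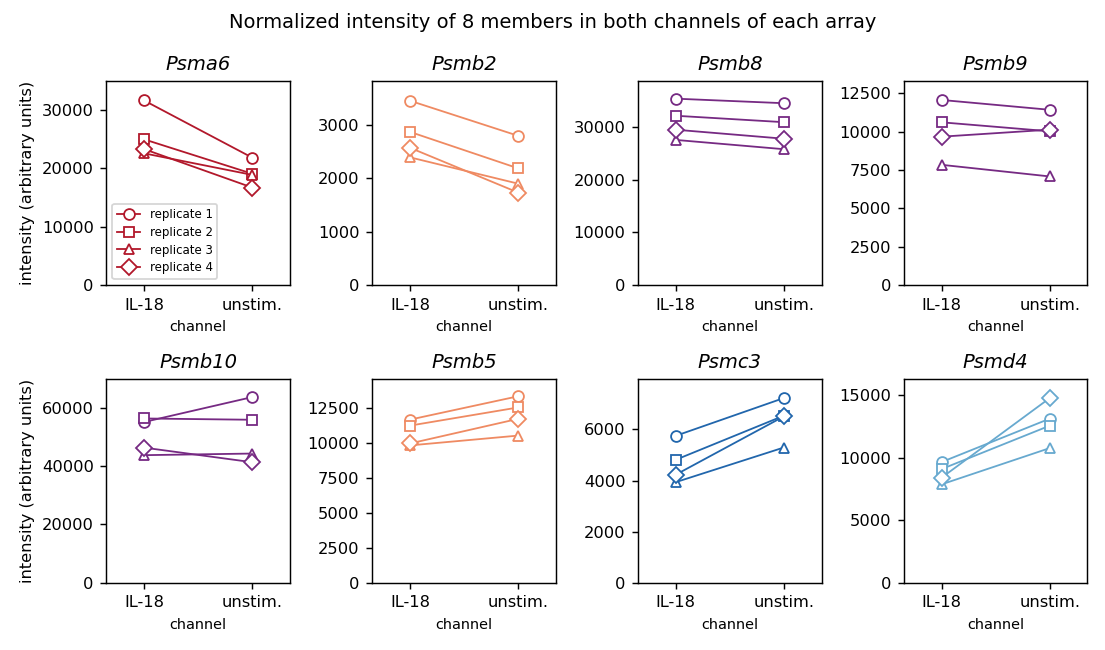
Normalized intensity, in arbitrary units on axes from 0, of 8 members at their brightest probe in the IL-18 channel (left) and the unstimulated channel (right); each line joins the 2 channels of 1 array. Lines of Psma6 and Psmb2 descend to the right on all 4 arrays and those of Psmb5, Psmc3 and Psmd4 climb on all 4. Those of Psmb8 are nearly level, and those of Psmb9 and Psmb10 run both ways. With median centring in place of loess Psmb5, Psmc3 and Psmd4 have mean log2 ratios above 0.

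Of the 6 ATPases of the 19S particle, the motor that unfolds substrates, 4 fell, 1 rose and 1 did not pass, with a median of −0.19. Of all tested genes 13.7% fell and 19.7% rose, and of the tested probes as bright as the median member or brighter 25.9% fell. Psmc3 fell most. Its normalized intensity was 5752, 4813, 3937 and 4229.8 in the IL-18 channel, against 7230.0, 6539, 5293 and 6511 in the unstimulated channel. It was lower with IL-18 on every array, least on replicate 1 and most on replicate 4, at −0.33, −0.44, −0.43 and −0.62, a mean of −0.46 ± 0.12 (SD, n = 4), 0.729-fold, with limma's adjusted p at 0.00315. Under median centring it read 0.51 and did not pass.

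Psmc1 (−0.21, −0.22, −0.23 and −0.33) and the brighter probe of Psmc2 (−0.16, −0.17, −0.14 and −0.23) were below 0 on all 4 arrays. So were both probes of Psmc4, at −0.13, −0.14, −0.13 and −0.39 for the brighter and −0.13, −0.29, −0.25 and −0.51 for the dimmer one. The means were −0.25 ± 0.06, −0.18 ± 0.04, −0.20 ± 0.13 and −0.29 ± 0.16 (SD, n = 4), those of the brightest probes positive under median centring, with limma's adjusted p between 0.00884 and 0.0382. Replicate 4 was the lowest array at each of these 4 probes. A second, much dimmer probe of Psmc2 read 0.15 ± 0.09 and did not pass. The mean over both probes of Psmc2 was −0.01.

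The remaining pair, Psmc5 and Psmc6, did not follow the other ATPases. Psmc5 passed in opposite directions at its 2 probes. The brighter one had 9004, 7370.2, 6112 and 6161 in the IL-18 channel, against 8312, 6807, 5523 and 5106 in the unstimulated channel, and log2 ratios of 0.12, 0.11, 0.15 and 0.27 (mean 0.16 ± 0.07, limma's adjusted p = 0.0375). The dimmer one had 3138, 2322, 1885 and 2024 in the IL-18 channel, against 4713, 3891, 3254 and 3169.6 in the unstimulated channel, and −0.59, −0.74, −0.79 and −0.65 (mean −0.69 ± 0.09, limma's adjusted p = 0.000877). Each probe kept its sign on all 4 arrays, and the fall was the larger, so that the mean of both probes was −0.26. Psmc6 read 0.05 ± 0.11 at its brighter probe, which did not pass, and 0.17 ± 0.07 at its dimmer one, which rose (limma's adjusted p = 0.0326).

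Among the ATPases Psmc3 alone passed each time that 1 array was left out. Psmc1 and Psmc2 missed the threshold without replicate 2 (limma's adjusted p = 0.0573 and 0.107) or 3 (0.052 and 0.0839), and the brighter probes of Psmc4 and Psmc5 without replicate 2, 3 or 4 (0.0563 to 0.129). The dimmer probe of Psmc5 passed each time, at −0.73 to −0.66.

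The 14 genes numbered as non-ATPases of the 19S particle gave 6 falls, 2 rises and 6 that did not pass, with a median of −0.05, where 13.7% of all tested genes fell and 19.7% rose. Psmd4, a receptor for ubiquitin chains, fell most of all members at the brightest probe. Its normalized intensity was 9638, 9078, 7857 and 8391 in the IL-18 channel, against 13103, 12541, 10751 and 14744 in the unstimulated channel. The IL-18 channel was the lower one on every array, with replicate 4 well below the other 3, at −0.44, −0.47, −0.45 and −0.81, a mean of −0.54 ± 0.18 (SD, n = 4), 0.686-fold, with limma's adjusted p at 0.00381. A second probe, near the dim end at a mean log2 intensity of 7.6, read −0.16 ± 0.20 and did not pass. Under median centring the bright probe read 0.55 and did not pass.

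Psmd13, a lid subunit, had 1953, 1282, 1034 and 1148 in the IL-18 channel, against 2058, 1653, 1419.5 and 2021 in the unstimulated channel. Replicate 1 was nearly level and replicate 4 fell most, at −0.08, −0.37, −0.46 and −0.82, a mean of −0.43 ± 0.31 (SD, n = 4; limma's adjusted p = 0.0266; 0.32 and not past the threshold under median centring). Psmd3 (−0.42, −0.34, −0.31 and −0.39; mean −0.36 ± 0.05) and Psmd11 (−0.22, −0.30, −0.16 and −0.40; mean −0.27 ± 0.11), both of the lid, were below 0 on all arrays. They passed at 0.00254 and 0.0115, and read 0.97 and 0.93 under median centring. Psmd2, the scaffold that docks shuttle factors, fell at both probes. The brighter one read −0.14, −0.15, −0.12 and −0.44, with replicate 4 apart from the others, a mean of −0.21 ± 0.15 (limma's adjusted p = 0.0436; 0.87 under median centring). The dimmer one read −0.60, −0.87, −0.92 and −1.59, a mean of −0.996 ± 0.42 (limma's adjusted p = 0.00524), the largest change of any member probe.

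Psmd7, which holds the deubiquitinase Psmd14 in place, passed in opposite directions. Its brightest probe had 5233, 4871, 3985 and 4053 in the IL-18 channel, against 7111, 6387, 5194 and 5061 in the unstimulated channel, and log2 ratios of −0.44, −0.39, −0.38 and −0.32 (mean −0.38 ± 0.05, limma's adjusted p = 0.00225). Its second probe had 3516, 2933, 2417 and 2417 in the IL-18 channel, against 4379, 4256, 3300.3 and 3477 in the unstimulated channel, and −0.32, −0.54, −0.45 and −0.52 (mean −0.46 ± 0.10, limma's adjusted p = 0.00241). These 2 fell on every array and read close to each other. The dimmest had 789, 371, 351 and 282 in the IL-18 channel, against 689, 321, 292 and 216 in the unstimulated channel, at 0.20, 0.21, 0.27 and 0.39 (mean 0.26 ± 0.09, limma's adjusted p = 0.0102). It was higher with IL-18 on every array and was far dimmer than the other 2.

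The 2 rises among the 14 genes are no larger a share than the 19.7% of all tested genes. Psmd10, also known as gankyrin, is a chaperone of 19S assembly and leaves the finished particle. It had 4263, 2568, 2010.4 and 2112 in the IL-18 channel, against 2578, 1863, 1684 and 1928 in the unstimulated channel. All arrays were higher with IL-18, replicate 1 most and replicate 4 least, at 0.73, 0.46, 0.26 and 0.13, a mean of 0.39 ± 0.26 (SD, n = 4), 1.31-fold, with limma's adjusted p at 0.0229. Psmd14, which removes ubiquitin chains, read 0.24, 0.33, 0.17 and 0.06 (mean 0.20 ± 0.11; limma's adjusted p = 0.0326), and its other probe 0.09 ± 0.13, which did not pass.

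The other assembly chaperones numbered here, Psmd5 (−0.05 ± 0.15) and Psmd9 (−0.04 ± 0.20 and −0.07 ± 0.11), did not pass. Nor did the subunits Psmd1 (−0.02 ± 0.16), Psmd6 (0.11 ± 0.06) and Psmd8 (−0.01 ± 0.07). Psmd12 read 0.02 ± 0.02 at its brightest probe and −0.06 ± 0.12 at the next, neither past the threshold, while its dimmest probe rose by 0.29 (limma's adjusted p = 0.0103). When 1 array was left out, Psmd3, Psmd4 and Psmd7 passed each time at their brightest probe. Psmd10 and Psmd13 missed without replicate 2 (limma's adjusted p = 0.105 and 0.0949) or 3 (0.0615 and 0.0969), Psmd11 without replicate 2 (0.0738), the brighter probe of Psmd2 without replicate 2, 3 or 4 (0.057 to 0.121) and that of Psmd14 without replicate 1, 2 or 3 (0.0631 to 0.158).

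Promoters of 3 of the 19S genes that fell are shown because they hold CCGGAAG, letters bound by factors of the ETS family. In the 250 bases before the gene start 8 of the 17 genes of 19S with a promoter in the RefSeq table held it on either strand, and 5 of the 7 that fell, against 1 of the 11 core genes and 6.91% of all 32851 promoters (GRCm38.p6). Capitals mark CCGGAAG or, read on the other strand, CTTCCGG; the other patterns searched are left in lower case.
Psmc1, chr12:100109952-100110201, plus strand: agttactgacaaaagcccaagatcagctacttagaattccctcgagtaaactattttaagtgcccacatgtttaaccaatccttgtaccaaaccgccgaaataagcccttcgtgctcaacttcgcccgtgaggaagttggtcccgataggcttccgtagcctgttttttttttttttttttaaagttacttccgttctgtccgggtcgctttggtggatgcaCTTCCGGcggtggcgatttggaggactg
Psmd2, chr16:20651402-20651651, plus strand: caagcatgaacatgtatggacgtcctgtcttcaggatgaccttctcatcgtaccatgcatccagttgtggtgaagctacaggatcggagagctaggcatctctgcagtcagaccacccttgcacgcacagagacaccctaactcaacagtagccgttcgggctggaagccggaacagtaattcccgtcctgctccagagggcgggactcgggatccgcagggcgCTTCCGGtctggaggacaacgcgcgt
Psmd4, chr3:95042615-95042864, minus strand: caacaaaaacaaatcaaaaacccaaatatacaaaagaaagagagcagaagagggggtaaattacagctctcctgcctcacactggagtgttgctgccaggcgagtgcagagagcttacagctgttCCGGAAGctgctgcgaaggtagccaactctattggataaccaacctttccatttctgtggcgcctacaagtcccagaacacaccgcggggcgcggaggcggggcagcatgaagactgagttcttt
In Psmc1 and Psmd2 the letters stood close to the start and in Psmd4 farther upstream. The pattern was picked after the counts of all 9 were seen, with no test, and Psmc3, Psmd3 and Psmd7 had no promoter in the table.

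Set side by side, the medians of the 15 core genes and the 20 genes of 19S were 0.27 and −0.12. The 19S class held the assembly chaperones Psmd5, Psmd9 and Psmd10, and Psmd10 was 1 of its 3 rises. Shfm1, a small lid subunit that rose, and the ubiquitin receptor Adrm1 stood outside it, in a list of partners given below. Of the core genes 10 rose and 1 fell, while 3 of the 19S genes rose and 10 fell; in the whole array 19.7% of genes rose and 13.7% fell. The core median lay above the 19S median on every array, by 0.22, 0.40, 0.38 and 0.44 on replicates 1 to 4, smallest on replicate 1. The difference of the medians over all 4 arrays was 0.39. Leaving out 1 array at a time gave 0.33 to 0.40. The counts were less stable: without replicate 2, 3 core genes rose and 4 genes of 19S fell, and without replicate 3, 4 and 5.

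The order of these 2 classes was the same under each of the 3 normalizations, but the position of 0 was not. With the scanner software's own ratio the medians were 0.18 for the core and −0.12 for 19S. With median centring they were 1.41 and 0.92, both positive. They then lay 0.28 above and 0.22 below the 1.14 of the tested probes at least as bright as the median member. Those probes had a median log2 intensity of 13.8, brighter than the 19S genes. The difference between the classes was 0.29 with the software's ratio and 0.50 with median centring. The core genes were also the brighter class, with a median log2 intensity of 14.3 against 12.7 for 19S. Over the 65 member probes, which share arrays, the log2 ratio and the mean log2 intensity correlated with Pearson's r = 0.175 and Spearman's rho = 0.218, a description across probes that are not independent. The part of brightness in the difference between the classes was not tested.

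**Figure D3:**
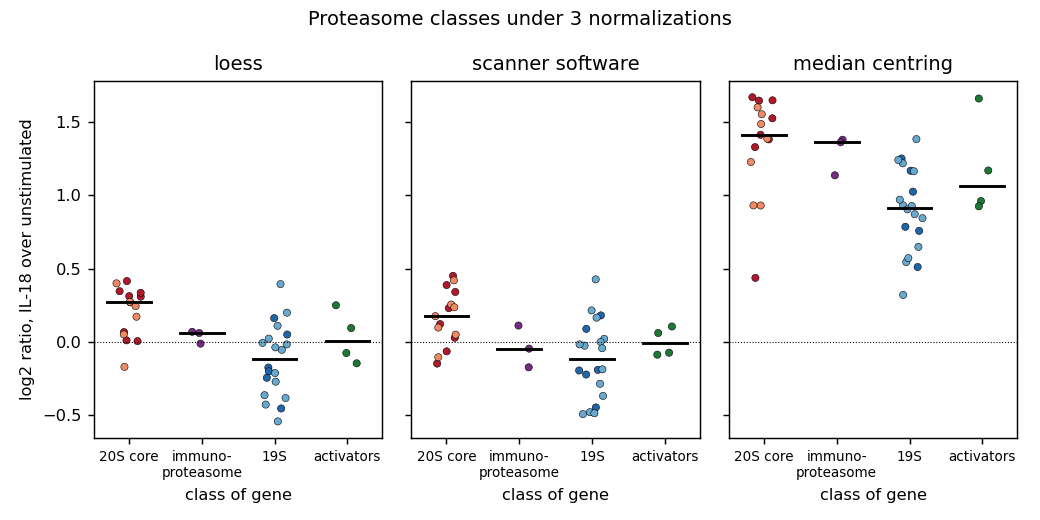
Mean log2 ratio, IL-18 over unstimulated, of the genes of 4 classes at their brightest probe under loess, the scanner software's ratio and median centring. Each point is a gene, black bars are class medians; the core lies above 19S in all 3 panels, at 0.27 and −0.12, 0.18 and −0.12, and 1.41 and 0.92, so that the 19S median is below 0 under the first pair of methods and above 0 under median centring.

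**Figure D4:**
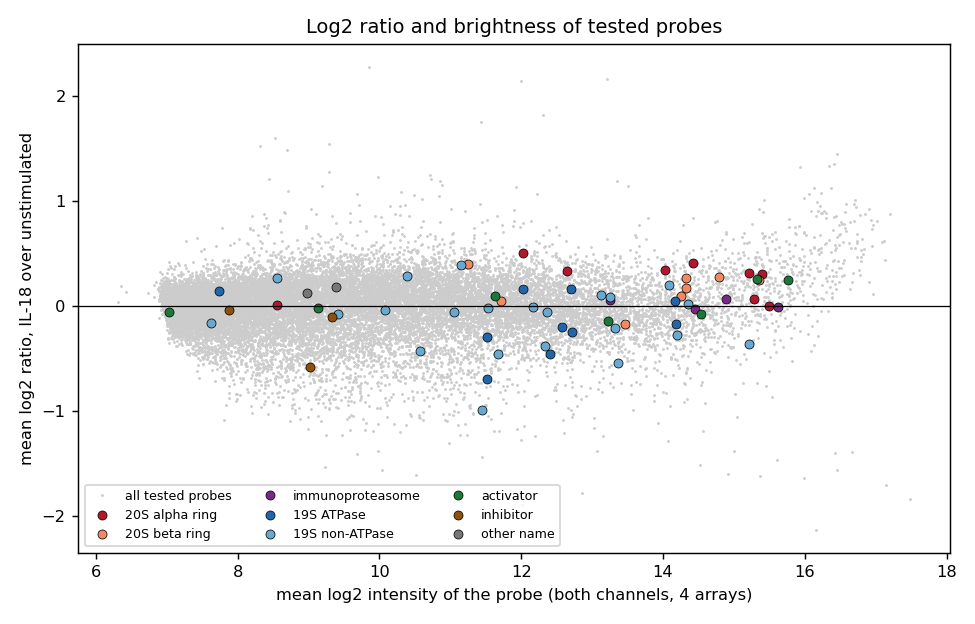
Mean log2 ratio, IL-18 over unstimulated, of each tested probe against its mean log2 intensity over both channels and 4 arrays. Grey points are the 24104 tested probes and coloured points the 65 member probes by class; members span intensities of 7.04 to 15.8, and both rises and falls among them are found above 12; these positions relative to 0 hold for loess and not for median centring.

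Several members depended on the probe read. More than 1 probe was tested for 17 genes, of which 2 rose at all probes (Psma4 and Psme2b-ps), 2 fell at all (Psmc4 and Psmd2), 2 passed in both directions (Psmc5 and Psmd7), 8 passed at part of their probes and 3 at none. In the whole array 5.77% of the 5443 genes with more than 1 tested probe passed in both directions. Probe sequences were not used here. By the array's annotation, both probes of Psmc5 target the same transcript record. The dimmest probe of Psmd7 is annotated to another record than the other 2 of that gene. Whether the probes of a gene read the same transcripts was not tested.

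**Figure D5:**
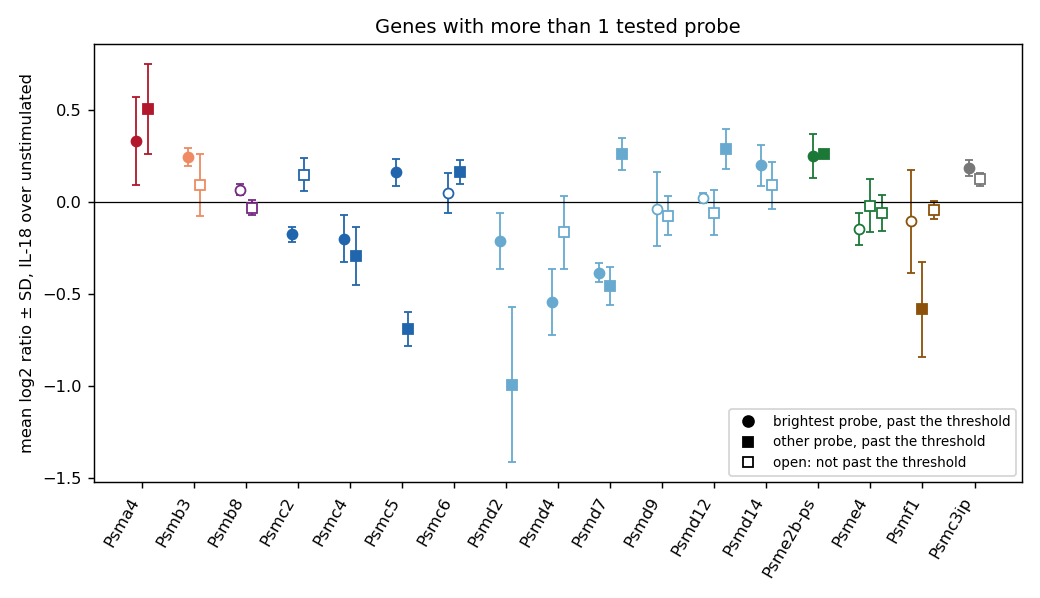
Mean log2 ratio, IL-18 over unstimulated, with the SD over 4 arrays, at each tested probe of the 17 genes with more than 1; circles are the brightest probe of a gene, squares its other probes, and filled symbols passed the threshold. The probes of Psmc5 stand at 0.16 and −0.69 and those of Psmd7 at −0.38, −0.46 and 0.26; under median centring the brightest probes of all 17 are above 0.

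Among the activators, which open the core without ubiquitin, 1 of 4 gene names rose, a share near the 19.7% of all tested genes and the 26.8% of probes at least as bright as the median member. Psme2b-ps is a processed copy of Psme2, a subunit of the PA28 activator that interferon gamma induces; the arrays carry no probe named Psme2, and signal from the 2 near-identical genes cannot be told apart. Its brighter probe had 61429.9, 62395, 57436 and 62491 in the IL-18 channel, against 58596, 50616, 46367 and 50066 in the unstimulated channel. Replicates 2 to 4 were alike and replicate 1 was lower, at 0.07, 0.30, 0.31 and 0.32 (mean 0.25 ± 0.12; limma's adjusted p = 0.0186). The other probe read 0.28, 0.24, 0.28 and 0.25 (mean 0.26 ± 0.02; limma's adjusted p = 0.0057). With the software's ratio the brighter probe read 0.06 and did not pass, nor did it pass without replicate 2 or 3 (0.1 and 0.0914).

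Psme1, the partner of Psme2 in PA28, had 25674, 24008, 20409.7 and 22492 in the IL-18 channel, against 28202, 24160.2, 20794 and 24691 in the unstimulated channel. All arrays were slightly lower with IL-18, at −0.14, −0.01, −0.03 and −0.13, a mean of −0.08 ± 0.07 that did not pass (limma's adjusted p = 0.226). Psme3, the nuclear PA28 activator, had 3565, 3537, 2986 and 3103 in the IL-18 channel, against 3417, 3364, 2787 and 2809 in the unstimulated channel. All arrays were slightly higher, at 0.06, 0.07, 0.10 and 0.14 (mean 0.09 ± 0.04; limma's adjusted p = 0.119). Psme4, the activator PA200, had 11013, 9496, 8010.3 and 8209 in the IL-18 channel, against 11751, 11087, 9309 and 8520.3 in the unstimulated channel. All arrays were lower, at −0.09, −0.22, −0.22 and −0.05, and the mean of −0.15 ± 0.09 missed the threshold (limma's adjusted p = 0.0574), which it passed without replicate 4 (−0.18, limma's adjusted p = 0.0394). Its dimmer tested probes read −0.02 ± 0.15 and −0.06 ± 0.10.

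Psmf1, which encodes the inhibitor PI31, had 1096, 537, 517 and 497 in the IL-18 channel, against 959.8, 562, 539 and 696 in the unstimulated channel. Replicate 1 was higher with IL-18 and replicate 4 clearly lower, at 0.19, −0.07, −0.06 and −0.49, a mean of −0.11 ± 0.28 (SD, n = 4) that did not pass (limma's adjusted p = 0.444), and 0.47, also not past the threshold, under median centring. A second probe of nearly the same brightness fell on all arrays, at −0.23, −0.65, −0.60 and −0.86 (mean −0.59 ± 0.26; limma's adjusted p = 0.00699), and a dimmer one read −0.04 ± 0.05. Psmc3ip, which the rule takes by its name, is no proteasome gene but a factor of meiotic recombination; it rose at its brighter probe (0.18 ± 0.04; limma's adjusted p = 0.019) and read 0.12 ± 0.04 at the other.

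No array name began with Psmg, the assembly chaperones of the core, of which Psmg1, Psmg2 and Psmg3 were found under older names. Psmg1 (Dscr2) read −0.01 ± 0.21 and Psmg2 (Tnfsf5ip1) 0.08 ± 0.08 and −0.12 ± 0.14 (SD, n = 4), none past the threshold. Psmg3 (1810042K04Rik) fell (−0.16 ± 0.08; limma's adjusted p = 0.0441). Pomp, the maturation factor that places the beta subunits, rose by 0.27 ± 0.13 (adjusted p = 0.0165 in limma).

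Pomp belongs to a list of partners of the proteasome with 23 names, some of them names of the same gene, such as Shfm1 and Sem1. Of these names 20 were on the arrays and tested. Of the 20, 9 rose, 3 fell and 8 did not pass, where 19.7% of all genes rose and 13.7% fell, with a median of 0.12. Both deubiquitinases that act on the 19S particle rose, Uchl5 by 0.31 ± 0.09 and Usp14 by 0.20 to 0.35 at its 3 probes. So did Shfm1, a small lid subunit now named Sem1, by 0.43 ± 0.18, and Txnl1, a thioredoxin bound to 19S, by 0.45 ± 0.21 at its brighter probe (SD, n = 4). Ubb, a ubiquitin gene, rose by 0.20 ± 0.14, the ubiquitin ligase Ube3c by 0.23 ± 0.13 and the protease Ddi2, which activates the factor Nfe2l1, by 0.29 ± 0.09. The other probes of Txnl1 (0.05), Ube3c (−0.10) and Ddi2 (−0.02) did not pass. The ninth was 2700059D21Rik, now Akirin2, a factor that brings proteasomes into the nucleus, at 0.14 ± 0.03.

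Among the falls were those of the shuttle factor Ubqln4 (−0.42 ± 0.23) and, at its brightest probe, of AI314180 (−0.25 ± 0.05), now Ecpas, a protein that binds both core and 19S, both lower relative to the loess trend, while 0 partners were lower under median centring. The probes of AI314180 passed in opposite directions: the next 2 read −0.68, which fell, and 0.29, which rose, and the dimmest tested one read −0.14 and did not pass. Adrm1, a ubiquitin receptor like Psmd4, read −0.06 ± 0.03 at its brightest probe and fell at a dimmer one (−0.77 ± 0.31). Nfe2l1, a factor that raises proteasome genes when the proteasome is blocked, read 0.09 ± 0.12 and did not pass. Nfe2l2, also of this list, read −0.01 ± 0.06 at its brightest probe, which did not pass. Its dimmer probes rose, at 0.24, 0.46 and 0.62. Without replicate 2, 3 partners rose and 1 fell, without replicate 3, 4 and 1, and with the software's ratio 4 rose.

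A list of genes of antigen processing, which use proteasome peptides, held 14 names, of which Erap1 and Arts1 are the same gene. Of these names 12 were tested, and 3 rose, 4 fell and 5 did not pass, beside 19.7% and 13.7% of all genes. The peptide transporter genes both fell, Tap1 at −0.72 ± 0.49 and Tap2 at −0.88 ± 0.18 (SD, n = 4; limma's adjusted p = 0.0205 and 0.0011). The class I heavy chain H2-D1 (−0.74 ± 0.27) and the loading factor Pdia3 (−0.47 ± 0.30) also fell, while the light chain B2m rose by 0.46 ± 0.23, the chaperone Canx by 0.29 ± 0.14 and the factor Irf1 by 0.16 ± 0.06. Other probes of B2m read 0.01 and 0.19, of H2-D1 0.01, of Irf1 −0.45 and of Canx 0.06 and −0.34; that of Irf1 and the last of Canx fell, against the direction of the brightest probe. H2-K1 read −0.03 ± 0.05 at its brightest probe, and −0.92 and −0.95 at 2 dimmer ones, which fell. Without replicate 2, and likewise without replicate 3, 0 of these genes rose and 2 fell, and under median centring 9 rose and 0 fell.

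Between the arrays, the log2 ratios of the member probes had a Pearson correlation that was lowest between replicates 1 and 4 (0.696) and highest between replicates 2 and 3 (0.966), which describes the arrays and rests on probes that are not independent. Replicates 1 and 2 shared 1 slide and replicates 3 and 4 another. The means on the 2 slides were 0.46 and 0.37 for Psma6, −0.45 and −0.63 for Psmd4 and −0.39 and −0.52 for Psmc3, the first value from replicates 1 and 2. Of the 26 called genes 7 passed each time that 1 array was left out: Psma1, Psma6, Psmb2, Psmc3, Psmd3, Psmd4 and Psmd7. Over all tested probes, 4358 rises and 3869 falls became 1387 and 904 without replicate 2. How many called genes of the whole array passed each time was not counted.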

How the data were processed

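The deposited scanner files of Agilent Feature Extraction 9.1 give, per the file headers, the mean intensity of each spot and the median intensity of its local background in both channels. The authors' software added processed intensities and the log10 ratio, Cy5 over Cy3, and a deposited table holds log10 ratios within 0.00496 of these. Both log10 ratios were turned to log2 and used as alternatives only.

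Background was corrected with normexp (offset 50) and ratios were normalized by loess within each array, with control and outlier spots at weight 0. Spots of a probe were averaged. Probes with at least 3 values entered the test when 1 and the same channel was flagged well above background on 3 or more arrays. limma 3.58.1 in R 4.3.3 (lmFit, eBayes; two-sided) tested the mean log2 ratio against 0, and p-values were adjusted by Benjamini-Hochberg over every tested probe. All adjusted p-values in the text are from limma. The ratio within an array is the pair, per the labels each treated sample with its own control. With 4 arrays the smallest p of an exact sign-flip test is 0.125, so none was used. The loess and limma steps were tested on simulated data. The planted changes were larger than that of any member gene at its brightest probe, so smaller ones were not covered. The number of arrays limits the precision.

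Intensities per channel are those after normexp and loess and are not read as levels of one gene against another. Genes are read at their brightest tested probe. Array gene names were kept, and older names were matched through RefSeq (GRCm38.p6), the source of the promoters of 36 of the 44 genes. Member promoters on a single chromosome were left out of the counts, while the background of all promoters kept that chromosome. The files name no genome build. All members were counted, and every array's value is given for the cutting subunits, activators and inhibitor, the 3 largest rises and falls of genes, and genes whose probes passed in opposite directions; array values of other members were added after their values were seen. The members and lists were chosen with earlier results of these data known. A gene of the partner list is counted but not reported here by itself.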

Additional observations from a re-analysis of the deposited data

Results flagged for a closer look

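A value was set apart when, among the 4 arrays, its gap to the nearest of the others exceeded Dixon's critical share of the whole range of that probe. Chance sets apart about 1 probe in 20, or 4.85 of the 97 features checked, and 14 were found. Replicate 4 was the array apart in 8 of them, replicate 1 in 4, replicate 3 in 2 and replicate 2 in 0.

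Replicate 4 lay beyond the other 3 arrays in the direction of the mean for Psma3 (log2 ratio 0.63, the others 0.21 to 0.27), Uchl5 (0.44, the others 0.25 to 0.28), Psmc1 (−0.33, the others −0.23 to −0.21), Psmd4 (−0.81, the others −0.47 to −0.44) and H2-D1 (−1.15, the others −0.62 to −0.58). The same held for the brighter probes of Psmc4 (−0.39, the others −0.14 to −0.13) and Psmd2 (−0.44, the others −0.15 to −0.12), and for the dimmest tested probe of Psme4 (−0.20, the others −0.02 to −0.01).

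Replicate 1 was apart for B2m (0.12, the others 0.54 to 0.61), for the brighter probe of Psme2b-ps (0.068, the others 0.30 to 0.32), for the dim probe of Psmc2 (0.014, the others 0.18 to 0.21) and for Ubqln1 (0.19, the others 0.07 to 0.09). On replicate 1 that probe of Psmc2 read 524 and 519 in the 2 channels. The untested probe of Psmd11, above background on 0 arrays, read 427 and 429 there, and 62.5 to 65.0 on the other arrays. The effect of this higher floor on the ratios of replicate 1 was not tested. Replicate 3 was apart for the dimmer probe of Psmc6 (0.066, the others 0.19 to 0.21) and for the lead probe of Usp14 (0.22, the others 0.19).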

How the results depend on the processing

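Median centring moved every class upward: 54 probes and 40 genes of the proteasome rose and 0 and 0 fell, 0 core genes fell, 17 genes of 19S rose and 0 fell, with medians of 1.41 (core), 0.92 (19S), 0.50 (their difference) and 0.96 (all member probes). It gave 18 partner rises and 0 falls, 9 rises and 0 falls in antigen processing, 13970 rises and 176 falls in all (98.8% of calls higher, against 53.0% with loess), and 94.2% and 0.0783% among bright probes. It turned the sign of Psmb5 (0.93), Psmb10 (1.38), Psmc1 (0.76), Psmc2 (1.03), Psmc3 (0.51), Psmc4 (0.79), Psmd1 (0.84), Psmd11 (0.93), Psmd13 (0.32), Psmd2 (0.87), Psmd3 (0.97), Psmd4 (0.55), Psmd5 (0.91), Psmd7 (0.57), Psmd8 (0.93), Psmd9 (0.65), Psme1 (1.17), Psme4 (0.93) and Psmf1 (0.47). The mean of all probes turned Psmc5 (−0.26) and left 1 gene of 19S higher. The software's ratio, in the files and the table, gave 0 core falls, a core median of 0.18 and 4 partner rises, and its processed signals with loess gave 0, 0.18 and 4. Scale normalization gave 0 calls in either direction for every count, and 0% of bright probes, with 5873 probes at an unadjusted p under 0.05 and a member median of 0.085; it set the spread of the tested probes to 0.396 on replicate 1 and 0.130 to 0.154 on the others, where loess left 0.0967 and 0.193 to 0.277. The causes of the other changes were not tested.

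Leaving out 1 array at a time gave 4 to 18 probe rises and 8 to 16 falls, 3 to 13 gene rises and 4 to 11 falls, 3 to 9 core rises and 0 to 1 falls, and 0 to 2 rises and 4 to 10 falls of 19S. Medians ran from 0.25 to 0.25 (core), −0.16 to −0.07 (19S), 0.33 to 0.40 (difference) and 0.01 to 0.04 (member probes). Partners gave 3 to 10 rises and 1 to 3 falls, antigen processing 0 to 2 and 2 to 4, all probes 1387 to 4505 and 904 to 4975, and bright probes 12.8% to 27.5% and 11.2% to 25.5%.

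Without the replicate block, the channels fitted as separate samples, 13 genes rose and 10 fell, in place of 15 and 11 in the paired fit; Psmb6, Psmc2 and Psmc5 missed the threshold. With the slide as a random block (correlation −0.056) 15 rose and 12 fell. Aquantile, both other offsets, both other filters and eBayes with trend kept all counts within 1.5 times. Probe signal over background limited 2 of the 67 probes, which had no test.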
